A study of Mus musculus with 8 samples.

Results

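Carboxylesterases are a family of serine hydrolases that cleave ester bonds in drugs, environmental esters and lipids, and liver is one of their main sites of expression. In the mouse, the family expanded by gene duplication into clusters of neighbouring genes, so several mouse genes stand where humans have 1. Many of the enzymes reside in the lumen of the endoplasmic reticulum, where some release fatty acids from stored triglyceride for the assembly of very low-density lipoprotein (VLDL), and others are secreted into plasma. The 10 genes described here, Ces1b, Ces1c, Ces1d, Ces1e, Ces1f, Ces1g, Ces2a, Ces2c, Ces3a and Ces3b, were taken by gene symbol from the 22564 genes of the liver mRNA table. The table holds 20 carboxylesterase genes in all. Each of the 10 members reached at least 1 FPKM (fragments scaled by transcript length and by the number of mapped fragments) in at least 4 of the 8 libraries, and all 10 entered the test.

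Liver RNA was sequenced in 8 libraries to compare a genetic model of fatty liver with control animals. There were 4 libraries of db/db mice, named db1, db2, db4 and db5, and 4 of control C57BL/6 mice, named C5, C6, C7 and C8, and the labels describe both groups as untreated. The db/db mouse carries a leptin receptor mutation, which the study describes as making the receptor nonfunctional, and becomes obese, insulin resistant and diabetic. Per the methods of the study, the db/db mice and its male C57BL/6J mice had different suppliers, and the db/db mice were bought at a younger age. Neither the sources used here nor the labels give the db/db background strain, the sex of each library, the age at collection, or whether the controls were among those C57BL/6J mice. Genotype, supplier and background strain cannot be told apart in this comparison. Whether the 8 libraries are 8 animals is not stated in the labels, so p-values measure the spread between libraries, which may be technical.

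Absolute depth is unknown because FPKM keeps no read totals, and relative depth, read from the steps between low values, was 0.81 to 1.10 times that of C5. Over all tested genes, the groups parted along the first principal component, which carried 64.6% of the variance. The second carried 10.3%, and on it db1 scored 27.6 whereas db2, db4 and db5 scored between -14.8 and -4.97. Of 12 hepatocyte markers fixed for this work, 11 were in the table and all 11 were expressed, with summed levels of 30327 to 46509 FPKM in db/db and 37633 to 43159 in control libraries. In bulk tissue, fewer cells of a type and less RNA per cell cannot be told apart. Summed Kupffer cell markers, 7 of 8 in the table, were 91.3 to 125 FPKM in db/db against 132 to 206 in control libraries. Summed sinusoidal endothelium markers, 7 of 7, were 69.1 to 73.8 against 85.8 to 107 FPKM. The markers within these sums did not move alike. Of the Kupffer cell markers, C1qa and Marco were lower without overlap, and Clec4f, Vsig4, Timd4, Cd5l and Csf1r overlapped between groups. Of the endothelial markers, Clec4g and Fcgr2b were lower without overlap, and Stab2, Pecam1, Kdr and Oit3 overlapped. Lyve1 was higher, at 2.52 to 6.05 FPKM in db/db against 1.45 to 2.51 in control libraries. The part of these cell types in the results below was not tested.

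All 10 members lie on chromosome 8 (build mm10). The 6 Ces1 members follow each other on the minus strand, and the 2 Ces2 and 2 Ces3 members lie in a second cluster on the plus strand. The coding sequences fall into the same 3 groups, and the closest pairs were Ces3a and Ces3b with 95.3% identical bases in a global alignment, Ces1b and Ces1c with 88.7%, Ces2a and Ces2c with 82.4%, and Ces1d and Ces1g with 81.5%. Between members of different groups, identity was lower, as the map of coding identities shows. The longest stretch identical in Ces3a and Ces3b was 194 bases, and that of Ces1b and Ces1c was 118 bases. Such stretches bear on the values, since reads that fall wholly inside them match both genes. Per the methods of the study, reads were paired and, before trimming, longer than the 118-base stretch and shorter than the 194-base one. The sources used here do not say how the authors shared out reads that match both genes.

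**Figure D1:**
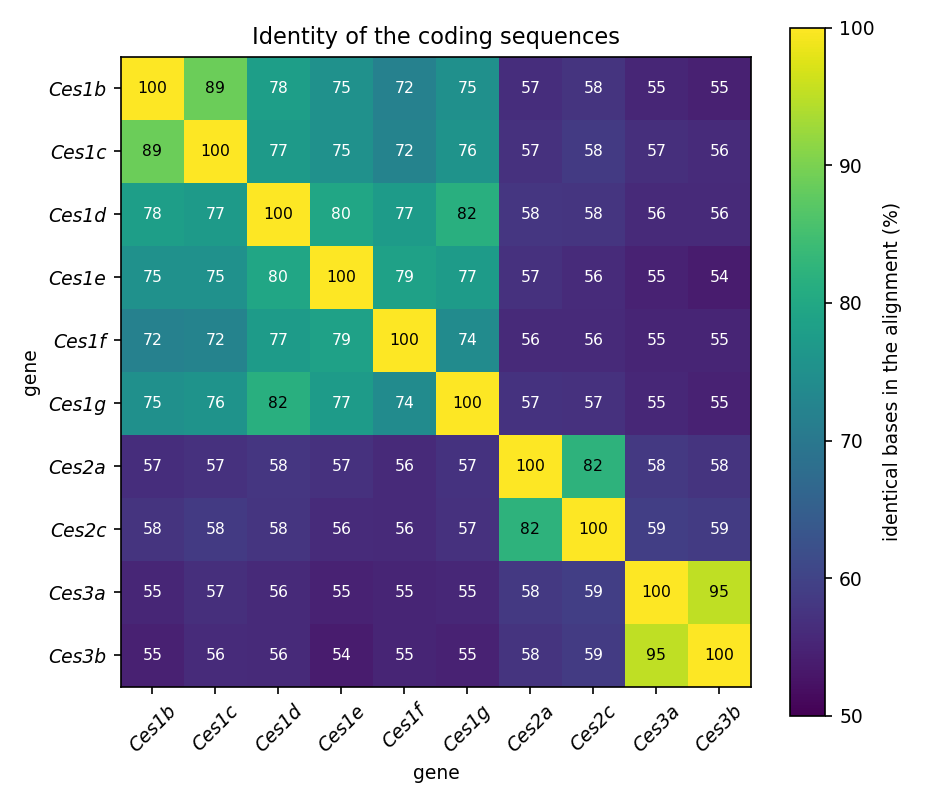
Percent of identical bases between the coding sequences of each pair of the 10 carboxylesterase genes, from global alignments of 1 annotated transcript per gene; rows and columns are genes. Ces3a and Ces3b reach 95.3% and Ces1b and Ces1c 88.7%, and the Ces1, Ces2 and Ces3 genes form 3 blocks.

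The ends of the coding sequences were read for a signal that keeps proteins in the endoplasmic reticulum. Many retained carboxylesterases end in histidine, any residue, glutamate and leucine. This variant of the classical retention signal is read by the receptor that returns proteins from the Golgi. Where the proteins reside was not tested, and other ends that may retain a protein were not searched. The last 8 codons before the stop are shown for all 10 members because they split the closely related Ces1 genes into 2 kinds. The last 4 codons are in capitals (mouse GENCODE M21, build GRCm38).
Ces1b: cctactgagcacAGAGAACACAAA
Ces1c: cctactgaacacACAGAACACAAA
Ces1d: tcccacagggaaCATGTTGAGCTC
Ces1e: ctgccgacagaaCACACTGAGCTG
Ces1f: ccccagccatacCACAATGAGCTG
Ces1g: tcccatagggaaCATGTTGAACTG
Ces2a: tctcaggacaagCATGCAGAGCTG
Ces2c: tctcaggacaagCACAGGGAGCTT
Ces3a: agcaggaaagttCCAGAGGAGCTC
Ces3b: agcaggaaagttCCAGAGGAGCTC
The 4 codons spell this retention signal in 6 members, Ces1d, Ces1e, Ces1f, Ces1g, Ces2a and Ces2c. They do so in 34 of 21699 annotated coding genes, or 0.157%. In Ces1b and Ces1c, codons of histidine, any residue and glutamate are followed by histidine and lysine codons in place of a final leucine codon. Ces3a and Ces3b share another end, in which a proline codon stands at the place of the histidine codon. The ends were read after the expression values had been seen.

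Compared with the control group, 5 of the 10 members were lower in db/db livers, 3 were higher and 2 were not called. Ces1b, Ces1c, Ces2a, Ces3a and Ces3b fell, and Ces1d, Ces1e and Ces1g rose, at an adjusted p under 0.05 in limma over all 9863 tested genes. Over all tested genes, 11.6% were called lower, 16.0% higher and 27.7% in either direction. The median difference of the members was -0.46 on the log2(FPKM + 1) scale, against 0.04 over all tested genes, and the median of its size without sign was 0.99 against 0.26. In 7 of the 10 members the 4 db/db and the 4 control libraries did not overlap, against 29.5% of all tested genes. An absolute log2 difference above 1.5 with an unadjusted p under 0.05, the thresholds of the study read as log2, was passed by Ces1c, Ces3a and Ces3b, all lower in db/db, against 2.75% of all tested genes. The base of that threshold is not stated. Read as a fold change of 1.5, a reading added after the data were seen, it was passed by 7 members, Ces1d and Ces1g higher and Ces1b, Ces1c, Ces2a, Ces3a and Ces3b lower, against 17.5% of all tested genes.

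**Figure D2:**
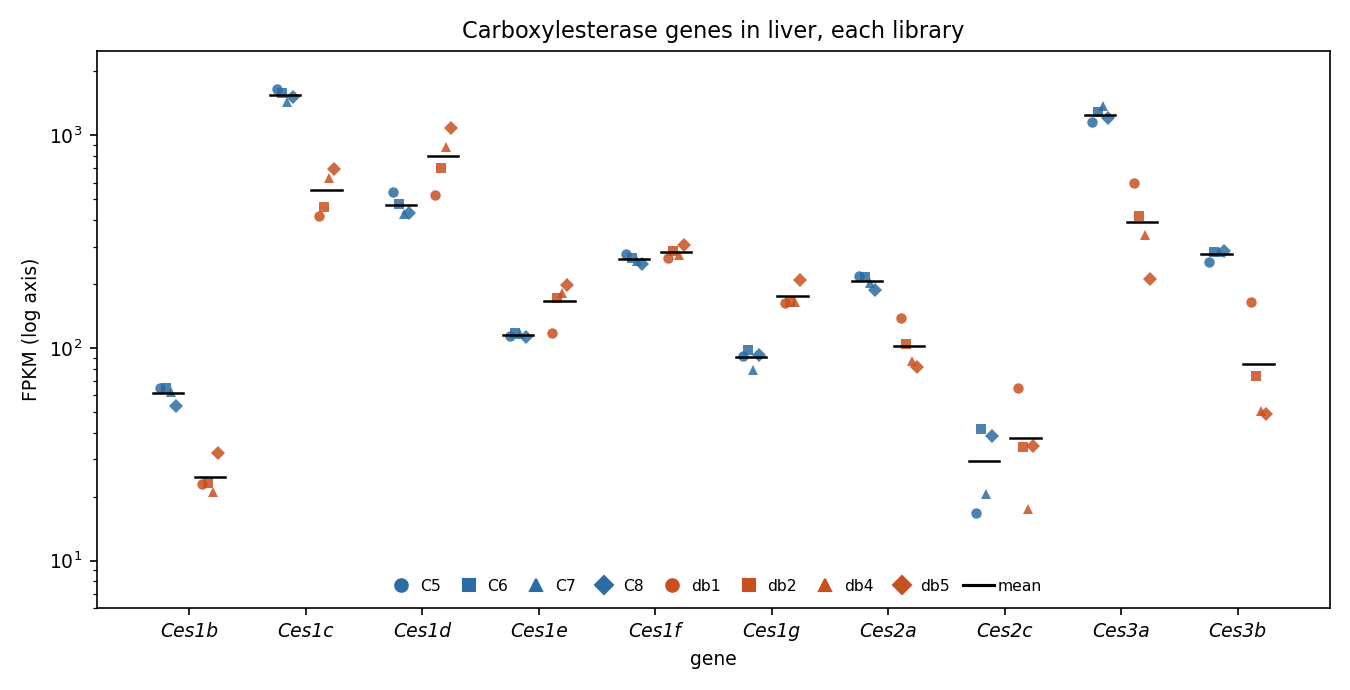
FPKM of the 10 carboxylesterase genes on a log axis; each point is 1 library (blue, control; orange, db/db; the marker shape names the library) and black lines are group means, n = 4 libraries per group. Groups do not overlap in 7 genes, and Ces1c and Ces3a, the 2 most abundant members in control libraries, lie between 1157 and 1648 FPKM there and between 210.4 and 696 FPKM in db/db.

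In control liver, Ces1c and Ces3a stood at the top of the family with means of 1548 and 1252 FPKM, ranks 57 and 66 of all genes in the table. Ces1d followed at 469 FPKM, then Ces3b at 277 and Ces1f at 262, whose library ranges of 254 to 287 and 248 to 278 were the only ones of neighbours in this order to overlap. Ces2a lay at 206, Ces1e at 115, Ces1g at 90.3, Ces1b at 61.4 and Ces2c at 29.4 FPKM. In db/db liver the order began with Ces1d at 798 FPKM, followed by Ces1c at 552 and Ces3a at 391. The ranks of these 3 genes were 100, 137 and 205, against 181, 57 and 66 in control liver. Below them came Ces1f at 282 FPKM, Ces1g at 175, Ces1e at 167, Ces2a at 103, Ces3b at 84.2, Ces2c at 37.8 and Ces1b at 24.8. In db/db liver, the ranges of all neighbours in this order overlapped except those of Ces1f and Ces1g. FPKM is scaled by transcript length, but reads shared with near copies limit how far the levels of Ces1b, Ces1c, Ces2a, Ces2c, Ces3a and Ces3b can be set beside those of other genes.

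Among the Ces1 genes, the pair without the retention signal fell. Ces1c (ENSMUSG00000057400, chr8:93099015-93131283, minus strand) encodes the main carboxylesterase of mouse plasma, which is secreted by hepatocytes. Its FPKM was 419, 461, 631 and 696 in db1, db2, db4 and db5, and 1648, 1577, 1443 and 1523 in C5, C6, C7 and C8. Every db/db library lay at less than the lowest control value, and the mean was 552 ± 133 against 1548 ± 86.9 (SD, n = 4 libraries per group). The difference was -1.52 ± 0.16 (SE) on the log2(FPKM + 1) scale, with an adjusted p of 8.79e-05 in limma.

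Ces1b (ENSMUSG00000078964, chr8:93056727-93080017, minus strand) is the neighbour of Ces1c and a less studied enzyme. It was measured at 22.9, 23.3, 20.9 and 31.9 FPKM in db1, db2, db4 and db5, and at 64.7, 65.0, 62.2 and 53.6 in C5 to C8. The groups did not overlap, and the difference was -1.29 ± 0.14 (SE; limma, adjusted p = 7.99e-05). Reads that lie wholly in shared sequence can be confused between these 2 genes. Of the 31-base words in Ces1b transcripts, 19.8% also occur in Ces1c, and 76.1% occur in no other annotated gene. For Ces1c, 16.4% of the words are shared with Ces1b and 76.7% are found nowhere else. The Ces1c level was 18.3 to 30.2 times the Ces1b level in db/db libraries and 23.2 to 28.4 times in control libraries, so the ratio of the 2 genes overlapped between groups while both fell.

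RefSeq gives 2 starts for Ces1b, one at the first transcribed base of the gene in the table and one 77 bases inside the gene. The 60-base window that ends 41 bases before the inner start of Ces1b and the same window of Ces1c are identical over 35 bases, against at most 9 between any other pair of the 7 members with a promoter entry, with this Ces1b start used. Both windows hold a CCAAT box on the other strand, which begins 68 bases before the inner Ces1b start, 9 bases after the outer one, and 78 bases before the only Ces1c start. The window of the outer Ces1b start was not compared. Ces1g has a box in the same orientation 58 bases before its RefSeq start, which lies 99 bases inside the gene as the table gives it, so by the table's coordinates that box is within the gene. Boxes were taken only if they begin 100 to 41 bases before a RefSeq start, which leaves out boxes farther away in Ces1g, Ces2a and Ces2c. In 3 members such a box also lies in front of the start that the table gives. For these 3, the 25 bases around the box (CCAAT, or ATTGG on the other strand, in capitals) are shown (build GRCm38.p6, RefSeq).
Ces1c (chr8:93131347-93131371, minus strand): aattatgctaATTGGtctagaggag
Ces2a (chr8:104733935-104733959, plus strand): tttgccccatCCAATcaaatgtcca
Ces3b (chr8:105083672-105083696, plus strand): tggcctccaaCCAATcgggcagacc
Within 250 bases before and 50 bases after a RefSeq start, CCAAT on either strand was found in 6 of these 7 members and in 37.4% of 32851 RefSeq promoters.

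In those 7 promoters, 4 other motifs were searched on both strands. TATAAA occurred in Ces3b, 30 bases before its RefSeq start, and in 13.6% of all promoters. In Ces1g it occurred on the other strand, 26 bases before a RefSeq start, and by the table's coordinates that match is within the gene. GTTAAT, a half-site of the hepatocyte factor HNF1, occurred in Ces3b only (7.10% of all promoters), and AGGTCA, a half-site of nuclear receptors, in Ces2a only (16.3%). TTCNNNGAA, the core bound by STAT5, was in none of the 7 and in 8.30% of all promoters. None of the matches overlapped another. Ces1d, Ces1f and Ces3a were not searched.

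The 4 Ces1 genes with the retention signal did not fall. Ces1d (ENSMUSG00000056973, chr8:93166068-93197838, minus strand) encodes triacylglycerol hydrolase, an enzyme of the endoplasmic reticulum that mobilizes stored triglyceride for VLDL. Its FPKM was 525, 699, 885 and 1081 in db1, db2, db4 and db5, and 541, 474, 429 and 433 in C5 to C8. The groups overlapped through db1, which lay under C5, while the other 3 db/db libraries lay above every control. The mean was 798 ± 240 against 469 ± 52.1 FPKM, and the difference of 0.72 ± 0.20 (SE) had an adjusted p of 0.0212 in limma. The exact permutation test on this gene alone gave p = 0.0571 (2-sided, 70 splits, smallest possible 0.0286). The limma call was lost with no filter on low values (adjusted p = 0.0555), without db4 (0.0555) and without C7 (0.0547).

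Ces1g (ENSMUSG00000057074, chr8:93302369-93337308, minus strand) lies at the other end of the member block, and mice that lack it have been described as obese with fatty livers. Its levels were 163, 164, 164 and 209 FPKM in db1, db2, db4 and db5, against 91.9, 98.0, 79.2 and 92.2 in C5 to C8. All db/db libraries exceeded all controls, with means of 175 ± 22.6 and 90.3 ± 7.90, a ratio of 1.94. The difference of 0.95 ± 0.12 (SE; limma, adjusted p = 0.000217) was the steadiest of the 3 rises, and leaving out any 1 library kept it between 0.86 and 0.99.

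Ces1e (ENSMUSG00000061959, chr8:93201218-93229619, minus strand) encodes egasyn, which anchors beta-glucuronidase in the endoplasmic reticulum. It was at 118, 172, 182 and 198 FPKM in db1, db2, db4 and db5, and at 113, 117, 117 and 113 in C5 to C8. The groups did not overlap, but db1 exceeded the highest control by little. The difference was 0.51 ± 0.15 (SE; limma, adjusted p = 0.0268). This call was the weakest of the 8: it held in 1 of 8 fits that left out a library, the one without db1, where the difference was 0.67, and adjusted p lay between 0.0503 and 0.0759 in the other 7. It was also lost with no filter (0.0537) and with median-ratio scaling (0.0549).

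Ces1f (ENSMUSG00000031725, chr8:93256236-93279747, minus strand), a second triglyceride hydrolase of hepatocytes, stood between these genes in the cluster. It was at 266, 286, 273 and 305 FPKM in db1, db2, db4 and db5, and at 278, 266, 255 and 248 in C5 to C8. The groups overlapped, and the difference of 0.11 had a 95% interval of -0.10 to 0.31 (limma, adjusted p = 0.42). Larger changes in either direction lay outside this interval, while its neighbours Ces1e and Ces1g were both called higher. At least 91.9% of the 31-base words of Ces1d, Ces1e, Ces1f and Ces1g occur in no other gene.

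Summed over the pair without the signal, Ces1b and Ces1c, the level was 577 ± 136 FPKM in db/db and 1609 ± 89.1 in control libraries. Summed over the 4 with the signal it was 1423 ± 304 against 936 ± 67.9, and the libraries of the 2 groups did not overlap in either sum (1072 to 1793 against 880 to 1024 FPKM for the second). Within a library, Ces1d stood at 1.25 to 1.55 times the level of Ces1c in db/db and at 0.284 to 0.328 times in control mice. Of the 4 pairs in the plot of ratios, this was the only one whose groups did not overlap. Ces1d over Ces3a, which is not plotted, did not overlap either, at 0.879 to 5.14 in db/db and 0.314 to 0.468 in control libraries. These sums and ratios were chosen after the values had been seen and were not tested.

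**Figure D3:**
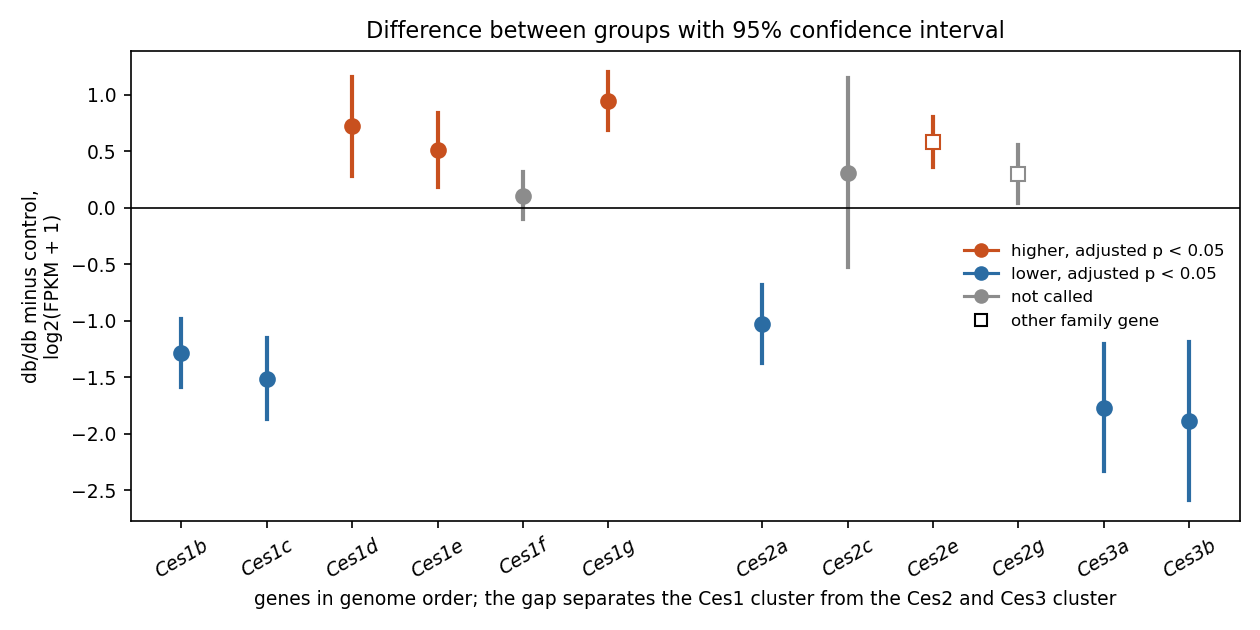
Difference between db/db and control (log2(FPKM + 1), limma) with its 95% confidence interval for the 10 members (circles) and the 2 other family genes that could be tested (squares), in genome order; orange is called higher, blue called lower and grey not called, n = 4 libraries per group. Ces1b and Ces1c lie below 0 next to Ces1d, Ces1e and Ces1g above it, and Ces3a and Ces3b lie lowest at -1.77 and -1.89.

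Of the Ces2 genes, Ces2a fell. Ces2a (ENSMUSG00000055730, chr8:104734003-104741634, plus strand) encodes a hydrolase of diacylglycerol and triacylglycerol in the endoplasmic reticulum. Its FPKM was 138, 104, 86.8 and 81.4 in db1, db2, db4 and db5, and 219, 216, 203 and 187 in C5 to C8. The groups did not overlap, and the mean of 103 ± 25.5 was 0.498 times that of 206 ± 14.6 in controls. The difference was -1.03 ± 0.16 (SE; limma, adjusted p = 0.000843). Ces2a was the only member that ends in the retention signal and fell. Its transcripts share 24.7% of their 31-base words with the pseudogene Gm7208, which has no row in the table, and 69.8% occur nowhere else.

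Ces2c (ENSMUSG00000061825, chr8:104847068-104854483, plus strand), a related hydrolase with activity on acylcarnitines and acylglycerols, had the widest ratio of highest to lowest library among the members in either group. It was at 65.1, 34.2, 17.5 and 34.5 FPKM in db1, db2, db4 and db5, and at 16.7, 41.5, 20.6 and 38.7 in C5 to C8. The highest library was at 3.73 times the lowest in db/db and 2.49 times in control. The difference of 0.31 had a 95% interval of -0.53 to 1.15 (limma, adjusted p = 0.578), so a rise or fall of moderate size was not detectable. It ranged from 0.01 without db1 to 0.62 without db4. Of its 31-base words, 42.9% also occur in the neighbouring pseudogene Ces2d-ps, and 49.9% in no other gene, the lowest share of the 10 members. Ces2d-ps itself was listed at 0.0305 to 0.406 FPKM.

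Both Ces3 genes fell, and their differences were the largest in size among the 10 members. Ces3a (ENSMUSG00000069922, chr8:105048599-105058414, plus strand) encodes an abundant liver carboxylesterase. It was at 597, 418, 340.2 and 210.4 FPKM in db1, db2, db4 and db5, and at 1157, 1281, 1367 and 1202 in C5 to C8. Every db/db library, also db1 with the highest of the 4 values, lay under every control. The mean was 391 ± 162 against 1252 ± 92.5, a difference of -1.77 ± 0.25 (SE; limma, adjusted p = 0.000605).

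Ces3b (ENSMUSG00000062181, chr8:105083753-105093929, plus strand) followed the same order of libraries. Its FPKM was 164, 73.9, 50.4 and 48.8 in db1, db2, db4 and db5, and 254, 284, 284 and 287 in C5 to C8. The groups did not overlap, with means of 84.2 ± 54.2 and 277 ± 15.7. The difference was -1.89 ± 0.32 (SE; limma, adjusted p = 0.00147), and -2.27 without db1. Of the 31-base words of Ces3a 34.9% also occur in Ces3b, and of those of Ces3b 35.7% occur in Ces3a. Reads that lie wholly in shared sequence cannot be told apart between the 2 genes. Ces3a stood at 3.65 to 6.75 times Ces3b in db/db and at 4.19 to 4.81 times in control libraries, ranges that overlap.

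**Figure D4:**
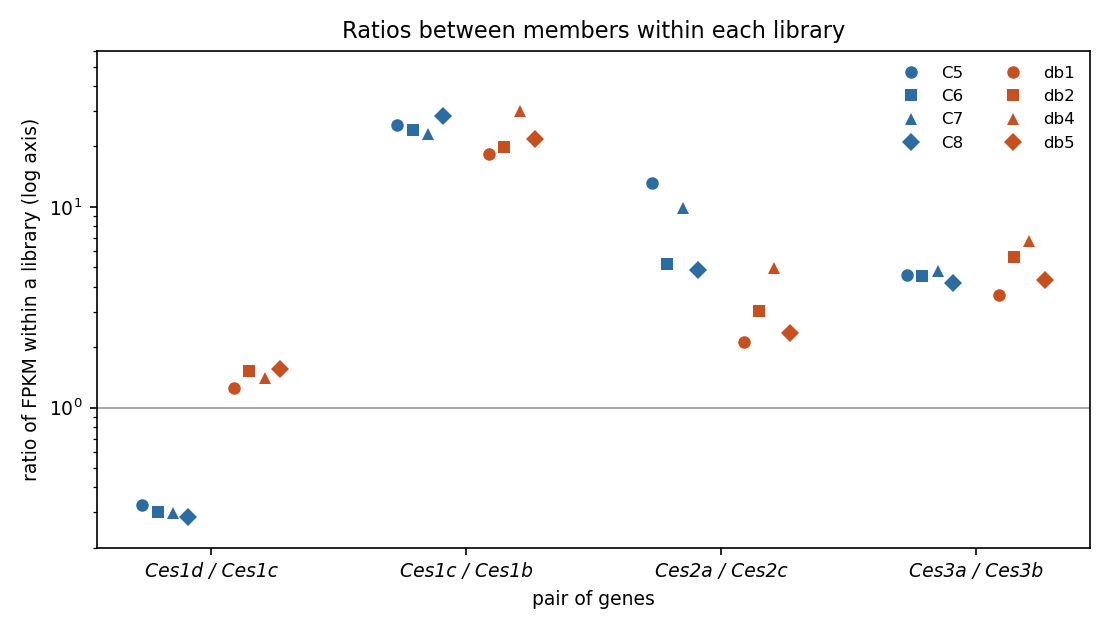
Ratio of the FPKM of 2 members within the same library, on a log axis, for 4 pairs; each point is 1 library (blue, control; orange, db/db), and the grey line marks a ratio of 1. Ces1d over Ces1c lies at 1.25 to 1.55 in db/db and 0.284 to 0.328 in control libraries, whereas Ces1c over Ces1b and Ces3a over Ces3b overlap between groups.

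The db/db libraries differed among themselves far more than the controls in several members. The highest db/db library was 3.35 times the lowest for Ces3b, 2.84 times for Ces3a and 2.06 times for Ces1d, while for members other than Ces2c this ratio lay between 1.04 and 1.26 in the control group. For Ces1c, Ces1d, Ces1e and Ces1g, db1 was the lowest library, followed by db2, db4 and db5. For Ces2a, Ces3a and Ces3b the order was the reverse, with db1 highest and db5 lowest. The db/db library nearest the control mean was db1 for 7 members, namely Ces1d, Ces1e, Ces1f, Ces1g, Ces2a, Ces3a and Ces3b. For Ces1b and Ces1c, however, it was db5. Without db1 the same 8 members were called, with differences of 0.90 for Ces1d, -1.18 for Ces2a and -2.01 for Ces3a.

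Taken as a sum, the 10 genes held 2615 ± 209 FPKM in db/db and 4310 ± 112 in control libraries (SD, n = 4), or 0.444% and 0.655% of all FPKM in the table. The libraries ranged from 2436 to 2897 and from 4177 to 4419 FPKM and did not overlap. The share of the Ces3 genes in this sum was 18.6% ± 9.26 in db/db against 35.5% ± 2.69 in control. That of the Ces1 genes was 75.9% ± 11.2 against 59.0% ± 2.65, while their summed level was 1999 ± 436 against 2545 ± 155 FPKM. Summed Ces1 levels overlapped between groups, at 1514 to 2522 FPKM in db/db and 2385 to 2737 in control libraries. The Ces1 share ran from 61.1% in db1 to 87.0% in db5, so that db1 lay within the control range of 56.0% to 62.5%. Within it, Ces1d took 30.2% of the summed level in db/db and 10.9% in control, and Ces1c 20.9% and 35.9%. The Ces2 share was 5.45% ± 2.00 in db/db and 5.46% ± 0.249 in control. Its db/db libraries ran from 3.93% to 8.19%, on both sides of the control range of 5.25% to 5.82%. The summed level of the 2 Ces2 members was 140 ± 44.1 FPKM in db/db against 235 ± 15.4 in control. This sum leaves out Ces2e, at 122 against 81.0 FPKM, and Ces2g, at 16.1 against 12.9 FPKM.

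**Figure D5:**
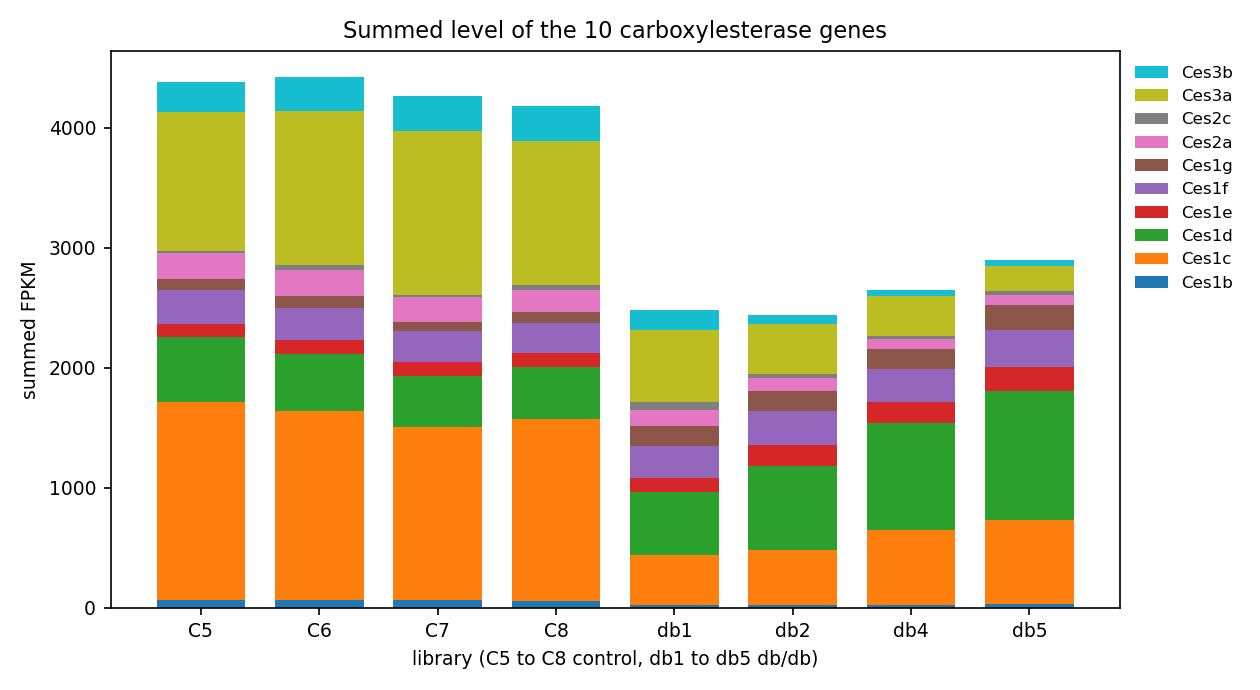
Summed FPKM of the 10 carboxylesterase genes in each library, stacked by gene; bars start at 0, and libraries C5 to C8 are control and db1 to db5 are db/db. The sum is 4177 to 4419 FPKM in control and 2436 to 2897 in db/db, and Ces1c and Ces3a make up most of the control bars.

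The other 10 family genes in the table added little to the total except for Ces2e, an esterase gene between Ces2c and Ces3a. Ces2e was higher in db/db, at 122 ± 10.1 against 81.0 ± 6.48 FPKM, with no overlap and a difference of 0.58 ± 0.10 (SE; limma, adjusted p = 0.00197). Ces2g was at 16.1 against 12.9 FPKM and was not called (0.30, adjusted p = 0.0817). Ces4a, which did not pass the filter on low values, was listed at 0.0215 to 0.155 FPKM in db/db and at 0.565 to 1.79 in control libraries, without overlap. Ces2b had 0.0332 to 0.421 FPKM in db/db libraries and 0.0906 to 1.58 in the controls. The other 6, Ces1a, Ces1h, Ces2d-ps, Ces2f, Ces2h and Ces5a, stayed below 0.5 FPKM in each library, and Ces1h was listed at 0 in all 8.

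Flanking genes were read for both clusters, against 27.7% called and 11.6% called lower over all tested genes. Of the 10 genes that flank the cluster of Ces1 and Ces5a, 4 could be tested and 0 were called by limma, and none of these 4 had an unadjusted p under 0.05. Of the 10 that flank the cluster of Ces2, Ces3 and Ces4, 5 could be tested and 2 were lower, Cbfb, a transcription factor subunit (-0.54, adjusted p = 0.0213), and Tradd, an adaptor of the tumour necrosis factor receptor (-0.44, adjusted p = 0.0468). Cbfb was at 2.78 against 4.53 FPKM and Tradd at 4.34 against 6.18 FPKM, levels far under those of Ces2a and Ces3a. With 4 and 5 genes tested, these counts are too small to be read against those shares.

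Other hydrolases of esters and neutral lipids were set beside the members. Of 20 listed, 18 were tested, 8 were higher and 0 were lower in db/db by limma, against 16.0% and 11.6% over all tested genes; none was lower at an unadjusted p under 0.05 either. The median difference was 0.41, against 0.04 over all tested genes and -0.46 over the 10 carboxylesterase members. That last value lies between Ces2a at -1.03 and Ces1f at 0.11, and it leaves out Ces2e (0.58) and Ces2g (0.30). Lipa, the acid lipase of lysosomes, was at 65.8 against 27.4 FPKM (1.24, adjusted p = 2.85e-05). Abhd6, a monoacylglycerol lipase, rose by 0.94 and Bche, the plasma butyrylcholinesterase, by 1.21 (adjusted p = 0.000177 for both). Aadac, a further esterase of the endoplasmic reticulum that was named after its value was seen, was at 433 against 414 FPKM and was not called (0.07, adjusted p = 0.703).

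Of 15 genes listed for VLDL assembly, the process that Ces1d serves, 4 were called higher and 1 lower, with a median of 0.34. Together that is 5 of 15, near the 27.7% called over all tested genes. The higher genes included Sar1b, a coat protein of transport vesicles (0.63, adjusted p = 0.00128), Cidec, a lipid droplet protein (2.83, adjusted p = 0.00232), and Mttp, the triglyceride transfer protein (0.61, adjusted p = 0.00351). Dgat2, a triglyceride synthase, was the remaining one (0.34, adjusted p = 0.0484). Sort1, a sorting receptor that binds apolipoprotein B, was lower (-0.80, adjusted p = 0.000733), at 0.536 against 1.68 FPKM. Sort1 lay near the limit of the filter and passed it through the control libraries, so its call is not independent of that filter. Of 11 nuclear receptors and sensors of foreign compounds, only Nfe2l2, a regulator of antioxidant genes, was called (1.06, adjusted p = 0.00273), and the median was -0.02.

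The genes whose levels ran most like those of the members over the 8 libraries differed by group. These correlations are descriptions over 8 libraries that include the difference between genotypes, with no test. For the mean log2 level of Ces3a and Ces3b the 3 closest were Cyp2d9, a male-biased cytochrome P450, with Pearson r = 0.991, Mup3, a major urinary protein, with 0.991, and Hsd17b2, a steroid dehydrogenase, with 0.989. All 3 were lower in db/db, by limma differences of -3.30, -2.34 and -0.93. Mup genes are near copies of each other, so the level of Mup3 is uncertain. For the Ces1 group, Cd47, Pus3 and Coq10a were closest (r = 0.957, 0.925 and 0.917), and for the Ces2 group C2cd2l, Itch and Sf3b1 (0.983, 0.958 and 0.949). None of these 6 was called in db/db, with differences between -0.16 and -0.09. The Ces1 mean averages members that rose with members that fell, and the Ces2 mean averages Ces2a, which fell, with Ces2c, which was not called.

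Other organs express carboxylesterases too, and their markers were read in the same libraries. Summed intestinal markers, 5 of 5 in the table, were 93.5 to 179 FPKM in db/db and 62.1 to 106 in control, nearly all of it Fabp2 and Lgals4, while Cdx2 was listed at 0 in every library. All 4 kidney tubule markers were listed at 0. Adipocyte markers summed to 0.384 to 1.82 and 0.417 to 3.25 FPKM, with Lep at 0 throughout. Of 5 pancreatic acinar markers, Pnlip, Cpa1 and Cel were at 0 throughout, and Cela1 gave most of the sum of 1.81 to 2.83 against 14.6 to 20.4 FPKM. Stellate cell sums were 105 to 135 against 106 to 124 FPKM, those of cholangiocytes 35.7 to 53.0 against 29.7 to 51.6, and those of B and T cells 0.319 to 1.21 against 1.23 to 5.08.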

How the data were processed

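Total liver RNA was depleted of ribosomal RNA and made into stranded libraries. The submitters' processing notes name cutadapt 1.9.3 for trimming, HISAT2 2.0.4 for alignment, build mm10, and Cufflinks with Cuffdiff for quantification. The sources used here give no version of the last 2, no annotation, and nothing on the use of strand or on reads with several matches. The deposited values are FPKM per gene and library, computed by the authors without pooling. The FPKM sum was 555661 to 676884 per library, 9592 to 9948 genes reached 1 FPKM, 6724 genes were at 0 throughout and 1 row held no values. An exact 0 can be a failed estimate.

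Values were taken as log2(FPKM + 1), which understates changes of low genes. The 9863 genes that reached 1 FPKM in 4 or more libraries were tested in limma 3.58.1 (R 4.3.3) by a 2-sided moderated test without covariates, using a mean-variance trend. The Benjamini-Hochberg adjustment covered these 9863 genes. The fit was tested on simulated data. Gene starts, which the table counts from 0, were moved to count from 1. Sequences were read from GENCODE M21 and RefSeq tables and aligned with Biopython 1.88 in Python 3.11.15. A 31-base word counted as shared when it occurs in a transcript of another gene. Words are shorter than the untrimmed reads of the study's methods, so a read that holds a shared word can still differ between genes. Alternatives were pseudocounts of 0.1 and 5, no filter, a filter of 5 FPKM, 2 other scalings, no trend, array weights, leaving out each library, an exact permutation test and the thresholds of the study, whose logFC has no stated base.

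The 10 members and the lists were chosen with earlier results of these data known, and the word, coding-end and motif searches after the values of the members had been seen. Named genes were the members, at most 3 genes per list and direction by adjusted p, and the 3 genes most correlated with each group. Dgat2, Aadac, Ces2g, Ces4a, Ces2b and the remaining untested family genes were named after their values were seen. Protein sequences were not used here.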

Additional observations from a re-analysis of the deposited data

Results flagged for a closer look

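In a group of 4 libraries, a value far from the other 3 was found in 2 of the 20 combinations of member and group, and chance alone flags about 1 group in 20. Ces1g stood at 209 FPKM in db5 while db1, db2 and db4 lay at 163 to 164. Ces3b stood at 254 FPKM in C5 against 284 to 287 in the other controls. Neither library came near the other group.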

How the results depend on the processing

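Ces1b, Ces1c, Ces1g, Ces2a, Ces3a and Ces3b were called in the same direction in all 17 settings of the limma fit, and Ces1f and Ces2c in none. Ces1d was called in 14 and Ces1e in 8 of the 17. The count of members called was 8 in the reported fit, 7 with median-ratio scaling, 6 with no filter, and 6 to 8 when 1 library was left out, and it was 3 with the thresholds of the study read as log2 and 7 with its 1.5 read as a fold change, a reading added after the data were seen. Over all tested genes, 2729 were called, and 2163 to 2542 without 1 library. Of these calls 1582 were higher and 1147 lower. Median-ratio scaling gave 1354 higher and 1351 lower, and under quantile normalization the split was 1404 to 1384. No member changed sign in any setting. No paired analysis was possible because the groups share only 1 library number. Depth is unknown in absolute terms, and reads shared between near copies limit Ces1b, Ces1c, Ces2a, Ces2c, Ces3a and Ces3b.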
